A study of Caenorhabditis elegans with 6 samples.

Results

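Small RNA reads on the sense and the antisense strand of genes were compared within libraries from embryos of Caenorhabditis elegans that carry the ced-3(n1286) mutation. Genes were taken where the deposited width was at least 300 bases and the counts of both strands, summed over the 3 ced-3 libraries, came to at least 30. These values alone chose the genes, 10671 of the 32238 in the tables, and the strand of the counts did not enter the choice. Of the 10671 genes, 7323 had no annotated exon of another gene on the opposite strand, 3063 had one, and 285 could not be matched to the annotation.

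The study compared 3 libraries of ced-3(n1286) embryos with 3 libraries of embryos that carry dot-1.1(knu339) together with ced-3(n1286), so the ced-3 mutation is shared by both groups. The ced-3 gene encodes the main killer caspase of the worm, and dot-1.1 encodes a worm relative of the histone H3 lysine 79 methyltransferase DOT1L. Embryos came from egg-laying adults kept at 20 °C, and inserts of 18 to 40 bases were sequenced. Each genotype was 1 strain, so p-values measure only the spread between 3 libraries of that strain.

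In worms, RNA-dependent RNA polymerases copy messenger RNAs into small interfering RNAs, which therefore lie antisense to the gene. Argonaute proteins carry these RNAs. Those of the WAGO group silence genes, transposons and pseudogenes, while CSR-1 binds small RNAs against germline messages and is known for protecting them. A smaller pathway that needs the Argonaute ERGO-1 acts on a set of duplicated and poorly conserved genes in eggs and embryos. Sense reads of a gene can come from pieces of its messenger RNA. Counts per gene carry neither read length nor first base, so how much each source gave was not tested.

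The libraries were deep and mostly microRNA. Both strands together held 24097652, 28496052 and 26220965 counts in replicates 1, 2 and 3. The embryo microRNAs mir-35 to mir-42 made up 31.3% to 36.8% of microRNA counts, and let-7 and lin-4, which mark later stages, made up 0.00159% to 0.00237%. MicroRNA genes took 77.8%, 92.4% and 86.7% of the sense counts in replicates 1, 2 and 3, and ribosomal RNA genes took 11.2%, 2.08% and 4.92%. Replicate 2 had the most microRNA and the least ribosomal RNA, and replicate 1 the reverse. The ced-3 gene itself (chromosome IV, 13198261 to 13204137, WBcel235) had 15, 15 and 12 antisense against 5, 1 and 4 sense counts. Antisense lay above sense there (share 81.2% ± 10.8, SD, n = 3; log2 ratio 2.09 ± 0.78, SE; edgeR adjusted p = 0.0175). At dot-1.1, which is not mutated in these libraries, 44, 57 and 40 antisense counts stood against 75, 66 and 55 sense counts, and the strands did not differ beyond the spread (edgeR adjusted p = 0.508).

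Genes ranged from fully antisense to fully sense, with the median gene near the middle. Antisense counts made up 21.99%, 46.6% and 31.9% of the counts of the 10671 genes in replicates 1, 2 and 3, a mean of 33.5% ± 12.4 (SD, n = 3). For one library, the 95% Wilson interval of replicate 2 was 46.5% to 46.6%, so counting error was far below the spread between libraries. The median share of a gene was 40.6%, 61.9% and 48.9%. Replicate 2 was thus the highest on both measures.

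Antisense was above sense in 2370 genes, 22.2% of the 10671, and sense above antisense in 2452, 22.98% (edgeR quasi-likelihood test, adjusted p under 0.05). Over all 12549 genes tested, whatever their width, 23.5% were called antisense and 29.2% sense, and the median share of summed counts was 45.4% there and 47.8% over the 10671 genes. Both strands of a library shared one library size, the sum of both tables. Scaling each strand to its own table instead moved the median log2 ratio by 1.93 and gave 6349 antisense and 669 sense calls. The share of a gene does not depend on that scaling. Replicate 3 moved the counts most, with 1080 antisense and 898 sense calls without it, and without replicate 1 there were 1457 sense calls.

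**Figure D1:**
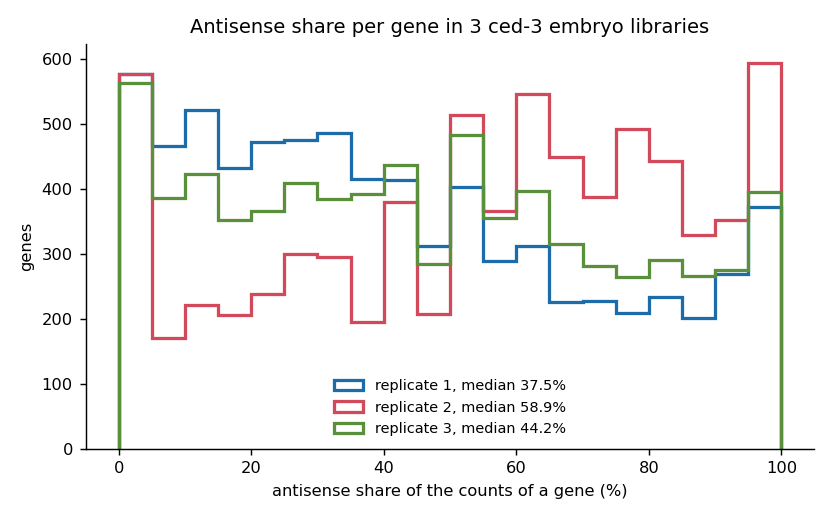
Number of genes (y axis) by the antisense share of a gene's counts in percent (x axis), in bins of 5 percentage points, for the 7323 genes with no opposite-strand exon; each line is 1 ced-3 library. The line of replicate 2 lies to the right of the other two, with a median of 58.9% against 37.5% and 44.2%.

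Among the 7323 genes with no exon on the opposite strand, 2026 had more antisense than sense counts in every library, 2325 had more sense in every library, and 2972 lay on both sides. The share was highest in replicate 2 for 4220 of them. The summed antisense counts of nuclear protein-coding genes of this kind hardly moved between libraries, at 1.56%, 1.54% and 1.58% of the library. Their sense counts took 3.69%, 1.32% and 2.43%. Of 889900 such sense counts in replicate 1, trxr-1, acdh-1 and C55B7.3 had 148739, 147402 and 147396. These genes may hold the same reads, which would then be counted more than once. In these sums replicate 2 was low on the sense strand alone. How the microRNA and ribosomal RNA content of a library bears on this was not tested. Single genes moved on the antisense strand too, in both directions. Antisense counts were 6852, 2539 and 9757 at tra-1 and 4481, 6887 and 5129 at mesp-1.

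A gene was called dominant on one strand where the edgeR test passed and at least 90% of its counts lay on that strand in each of the 3 libraries. No minimum count per library was set, so a library with 1 count could meet the limit, as replicate 2 did at col-184. This held for 572 genes on the antisense strand and 491 on the sense strand, 5.36% and 4.60% of the genes, against 8.05% and 12.3% of all 12549 tested. Without replicate 2, 841 genes were sense-dominant. With no opposite-strand exon there were 321 antisense-dominant and 393 sense-dominant genes. Since these classes are defined by the shares, the values given next describe them and test nothing further.

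**Figure D2:**
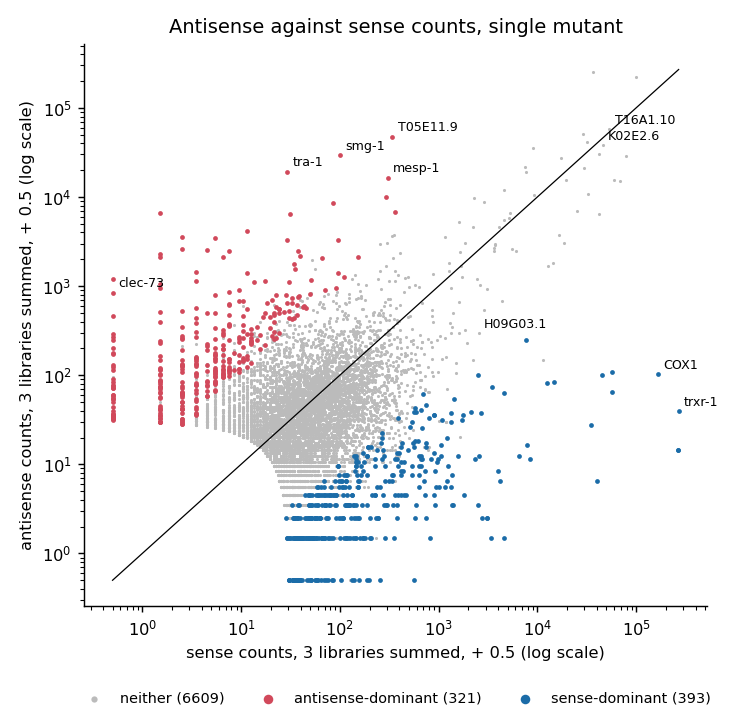
Antisense counts (y axis) against sense counts (x axis) of the 7323 genes with no opposite-strand exon, each the sum of 3 ced-3 libraries plus 0.5, on log scales, with the line of equality. Red points are the 321 antisense-dominant genes, blue points the 393 sense-dominant genes, and grey points the 6609 others.

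Among genes with no opposite-strand exon, the antisense-dominant locus with the most antisense counts was T05E11.9, a non-coding RNA gene (chromosome IV, 11106418 to 11107579, WBcel235). It had 20514, 11163 and 15924 antisense counts against 168, 64 and 106 sense counts. All libraries lay far to one side, at a share of 99.3% ± 0.122 (SD, n = 3; log2 ratio 7.20 ± 0.66, SE; edgeR adjusted p = 7.15e-22).

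The gene smg-1 (chromosome I, 6900949 to 6913579), which encodes the kinase of nonsense-mediated decay, had 14818, 4821 and 9599 antisense against 58, 14 and 27 sense counts. Its antisense counts lay within 2% of the sense counts of Y37D8A.3 on chromosome III in each library, which were 14561, 4753 and 9782. Both genes may hold the same reads, so the antisense signal of smg-1 is uncertain. Y37D8A.3 was chosen after its values were seen.

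The gene tra-1 (chromosome III, 11170890 to 11195201), which encodes the Gli-type transcription factor at the end of the sex determination pathway, had 6852, 2539 and 9757 antisense against 16, 1 and 12 sense counts. The strands differed by a log2 ratio of 9.54 ± 0.76 (SE; edgeR adjusted p = 1.76e-27). The meiotic spindle gene mesp-1 (chromosome IV, 8499310 to 8500076) had 4481, 6887 and 5129 antisense against 94, 125 and 87 sense counts, a share of 98.2% ± 0.199 (SD, n = 3). Replicate 2 was highest at mesp-1 and lowest at tra-1, so the loci did not rise and fall together.

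The other 6 of the 10 antisense-dominant genes with the most antisense counts were ubc-15, linc-91, sec-16A.2, F08A8.5, R09F10.3 and arrd-17. Their shares ran from 95.5% ± 1.42 at sec-16A.2, a relative of the Sec16 scaffold of the endoplasmic reticulum exit sites, to 99.6% ± 0.338 at arrd-17, an arrestin-domain gene (SD, n = 3). R09F10.3 lies next to sec-16A.2 on the same strand. Antisense counts were 3372, 692 and 2451 at R09F10.3 and 3481, 749 and 2526 at sec-16A.2. Both may hold the same reads, which was not tested, so they are uncertain as separate loci. At ubc-15, of the ubiquitin-conjugating enzyme family, antisense counts were 3534, 2715 and 3776. F08A8.5 varied most, with 3480, 42 and 3155 antisense counts against 0, 1 and 0 sense counts. Summed over the 321 genes, antisense counts were lowest in replicate 2, at 0.484%, 0.200% and 0.370% of the library in replicates 1, 2 and 3.

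Outside the protein-coding genes, the antisense-dominant loci with the most counts were T05E11.9, the long non-coding linc-91 and T09F5.12, and the pseudogenes Y51H7C.15, C06E4.22 and Y52B11A.18. C06E4.22 had 504, 907 and 1135 antisense against 1, 0 and 3 sense counts. Of 349 pseudogenes with no opposite-strand exon, 144 (41.3%) were called antisense and 60 (17.2%) sense, with a median share of 67.6%. Over the 7323 genes of that kind, 18.4% were called antisense and 25.7% sense, with a median share of 44.4%. Without replicate 3, 85 of these pseudogenes were called antisense and 28 sense. The pseudogene median hardly moved between libraries, at 68.2%, 69.6% and 66.7%.

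Some genes with abundant antisense counts and no opposite-strand exon, chosen after their values were seen, carried many sense counts too and were not dominant. F43E2.6 (chromosome II, 7366455 to 7368861) had 53707, 108277 and 88550 antisense against 8724, 15188 and 12768 sense counts, a log2 ratio of 2.75 ± 0.53 (SE; edgeR adjusted p = 1.72e-06). The pseudogene Y17D7C.3 had 35785, 111351 and 77807 against 23553, 32295 and 43753, and its strands did not differ beyond the spread (edgeR adjusted p = 0.0639). T16A1.10 had 10175, 26275 and 20927 against 13641, 16798 and 23027, with replicate 2 on the antisense side and the others on the sense side.

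Beside the gene lists that follow, 22.2% of the 10671 genes were called antisense and 22.98% sense, with a median share of 47.8%, and a list with shares near these does not stand out. The known targets of silencing that were listed lay on the antisense side. Of 5 listed loci of piRNA and WAGO silencing, 5 were called antisense and 0 sense, with a median share of 95.0%. The list holds genes known from worms as targets, so its direction is not independent evidence. The BATH-domain gene bath-45 had 506, 338 and 319 antisense against 17, 14 and 19 sense counts, and comt-3, a catechol methyltransferase family gene whose exons overlap nhr-86 on the other strand, had 119, 70 and 68 against 2, 5 and 2. The sex determination switch xol-1 had 84, 32 and 54 against 4, 2 and 3. C38D9.2 had 127, 85 and 89 against 3, 5 and 10, and fbxb-97 had 149, 104 and 104 against 17, 19 and 13. The last is also on the list of ERGO-1 class loci.

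Loci of ERGO-1 class small RNAs, a list that shares fbxb-97 with the one before, were mixed. Of 13 measured loci, 3 were called antisense and 3 sense (23.1% each), with a median share of 48.3% and no dominant gene on either strand. Without replicate 3 there were 1 antisense and 3 sense calls, and own-table scaling gave 9 and 2. K02E2.6 had 4822, 20150 and 13191 antisense against 10413, 14487 and 20993 sense counts (edgeR adjusted p = 0.494). E01G4.7 had 4931, 9286 and 6692 against 7763, 11982 and 9870, a share of 41.0% ± 2.46 (SD, n = 3). The neighbouring E01G4.5 leaned antisense, with 8409, 7082 and 6076 against 2055, 3136 and 2277 (share 74.1% ± 5.66; edgeR adjusted p = 0.00782). F55C9.3 leaned sense, with 1393, 2729 and 2294 against 14582, 10087 and 17434 (share 13.9% ± 6.58; edgeR adjusted p = 4.41e-06). K06B9.6 leaned antisense and H09G03.1, a long non-coding gene, leaned sense at 10.5% of its summed counts. Over the 13 loci, antisense counts took 0.130%, 0.251% and 0.201% of the library and sense counts 0.274%, 0.271% and 0.359%.

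**Figure D3:**
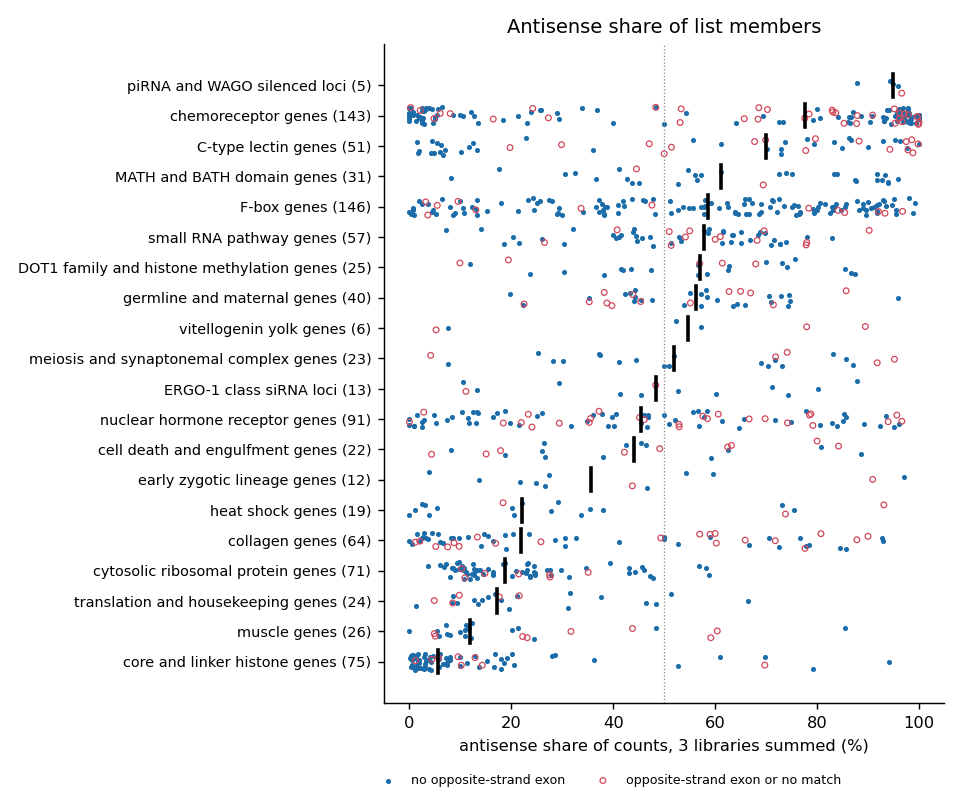
Antisense share in percent of each gene's counts summed over 3 ced-3 libraries (x axis) for the gene lists with at least 5 measured genes (y axis, number of genes in parentheses); each point is a gene and each black bar the list median. Silenced loci sit at the antisense end and histone genes at the sense end, while chemoreceptor genes form a group at each end.

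Large gene families of the worm genome differed in their calls. Chemoreceptor genes, which sensory neurons use and embryos need little, had enough counts in 143 of 1626 cases. Of these 70 (49.0%) were called antisense and 46 (32.2%) sense, with 30 antisense-dominant, 23 sense-dominant and a median share of 77.6%. Their median was 53 counts over both strands, against 92 over the 10671 genes. A gene with few counts can pass the limit of 30 through 1 strand alone. How far this made the groups at both ends was not tested. Without replicate 3 the calls were 42 and 33, and on own-table scaling 84 and 31. The chemoreceptor gene srz-67 had 964, 641 and 682 antisense against 1, 0 and 0 sense counts, whereas str-86 had 1, 0 and 0 against 83, 45 and 157. Both were chosen after their values were seen, to show the ends of the range. By summed share the ends were str-28, with 27, 3 and 20 antisense counts and no sense count, and the pseudogene srb-10, with 33, 0 and 12 sense counts and no antisense count.

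C-type lectin genes, many of them secreted proteins of defence, were called antisense in 20 (39.2%) and sense in 17 (33.3%) of 51 cases, with a median share of 69.9%. Of the 35 with no opposite-strand exon, 12 were called antisense and 16 sense, and without replicate 3 the calls over the 51 were 11 and 8. On own-table scaling they were 32 and 6. At clec-73 antisense counts were 398, 59 and 386 against 0, 0 and 0 sense counts, and a sense count of 0 allows a share of up to 0.356%. At the other end, clec-29 had 1, 0 and 0 antisense against 48, 2 and 16 sense counts. F-box genes, adaptors of ubiquitin ligases, were called antisense in 46 (31.5%) and sense in 29 (19.9%) of 146, with a median share of 58.6%, and in 23 and 19 without replicate 3 and 93 and 15 on own-table scaling. The F-box gene fbxa-72 had 74, 6 and 39 antisense against 1, 0 and 0 sense counts, while fbxb-6 had 22, 15 and 21 sense counts and no antisense count. MATH and BATH domain genes were called antisense in 12 and sense in 2 of 31 (38.7% and 6.45%, median share 61.2%), or 25 and 0 on own-table scaling and 6 and 0 without replicate 3, among them bath-20 with 400, 273 and 222 antisense against 21, 27 and 22 sense counts. Nuclear hormone receptor genes were called antisense in 17 (18.7%) and sense in 26 (28.6%) of 91, with a median share of 45.5%, and in 6 and 15 without replicate 3. With each strand scaled to its own table, that last list turned to 47 antisense and 11 sense calls.

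Germline and maternal genes lay near the middle of the range. Of 40 measured, 7 (17.5%) were called antisense and 3 (7.5%) sense, with a median share of 56.2%, and own-table scaling gave 35 and 0. The RNA-binding protein gene puf-8 was antisense-dominant, with 143, 203 and 151 antisense against 11, 2 and 8 sense counts, and pos-1, which encodes a maternal RNA-binding protein, had 8, 12 and 6 against 71, 11 and 24. Of 23 meiosis genes, 7 (30.4%) were called antisense and 3 (13.04%) sense, or 16 and 2 on own-table scaling, with a median share of 52%, and with spo-11, the enzyme of meiotic DNA breaks, at 95.2% and cosa-1, a crossover factor, at 4.17% of summed counts. The exons of spo-11 and cosa-1 overlap genes on the other strand. Without replicate 3, germline and maternal genes had 1 antisense and 0 sense calls, and meiosis genes 2 and 2.

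Genes of the small RNA pathways themselves were called antisense in 9 (15.8%) and sense in 6 (10.5%) of 57 cases, with a median share of 57.9%. Own-table scaling gave 47 and 1. At csr-1, the Argonaute of germline messages, 93, 98 and 106 antisense counts stood against 54, 57 and 37 sense counts, and the test did not pass (edgeR adjusted p = 0.130). At sago-1, a WAGO-group Argonaute, 122, 5 and 91 stood against 24, 4 and 17 (edgeR adjusted p = 0.00798). The microRNA Argonaute gene alg-1 was on the sense side, with 20, 11 and 6 against 165, 97 and 220 (edgeR adjusted p = 4.10e-07). A short non-coding gene, K02B9.10, overlaps it on the same strand, and its part in these counts was not tested. Without replicate 3, 1 gene of this list was called on each strand.

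Among 25 genes of the DOT1 family and histone methylation, 6 (24%) were called antisense and 3 (12%) sense, with a median share of 57.0%, and own-table scaling gave 20 and 0. The histone methyltransferase family gene set-32 had 26, 26 and 24 antisense against 6, 1 and 4 sense counts, and amx-1, an amine oxidase family gene that overlaps cnnm-5 on the other strand, had 3, 5 and 2 against 39, 20 and 32. Of 22 cell death and engulfment genes, 4 (18.2%) were called antisense and 5 (22.7%) sense, close to the shares over all 10671 genes, with a median share of 43.98%, and own-table scaling turned this to 13 and 1. The caspase-related csp-1 had 88, 52 and 17 against 5, 7 and 8, and ced-11, whose exons overlap ZK512.14 on the other strand, had 2, 1 and 0 against 32, 5 and 29. Of 12 early zygotic genes, 2 (16.7%) were called on each strand (median share 35.6%), or 6 antisense and 1 sense on own-table scaling, with end-1, a GATA factor of endoderm, at 31, 33 and 38 antisense against 1, 0 and 2 sense counts, and php-3, a homeobox gene, at 2, 1 and 0 against 30, 32 and 15. Without replicate 3 the 3 lists had 1, 1 and 1 antisense and 0, 0 and 1 sense calls.

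The sense-dominant class held abundant single genes and the mitochondrial genome. The protein-coding gene with the most sense counts and no opposite-strand exon was trxr-1, a thioredoxin reductase gene (chromosome IV, 7011954 to 7016586), with 148739, 37170 and 83524 sense against 13, 16 and 10 antisense counts. The neighbours acdh-1, an acyl-CoA dehydrogenase gene, and C55B7.3 on chromosome I had 147402, 36616 and 81993 and 147396, 36612 and 81989 sense counts. The 3 genes lay within 2% of each other in every library, so they may hold the same reads and are uncertain as separate loci.

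Mitochondrial protein genes had nearly pure sense counts. Of 11 measured mitochondrial protein genes, 11 were called sense and 10 were sense-dominant, and ND4 fell short in replicate 2 alone, with 40 antisense against 346 sense counts. COX1, a subunit of cytochrome oxidase, had 94553, 5026 and 68178 sense against 21, 47 and 34 antisense counts. Short non-coding genes overlap COX1, CYTB and COX2 on the same strand by annotation, and their part in the sense counts was not tested. Sense counts of the 11 genes took 1.04%, 0.0433% and 0.703% of the library, so replicate 2 was far below the others. Antisense counts of the same genes were 244, 258 and 239. Of the 10 sense-dominant protein-coding genes with the most sense counts, the other 6 were ND5, CYTB, COX3, ATP6, COX2 and ND1, all of them mitochondrial.

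**Figure D4:**
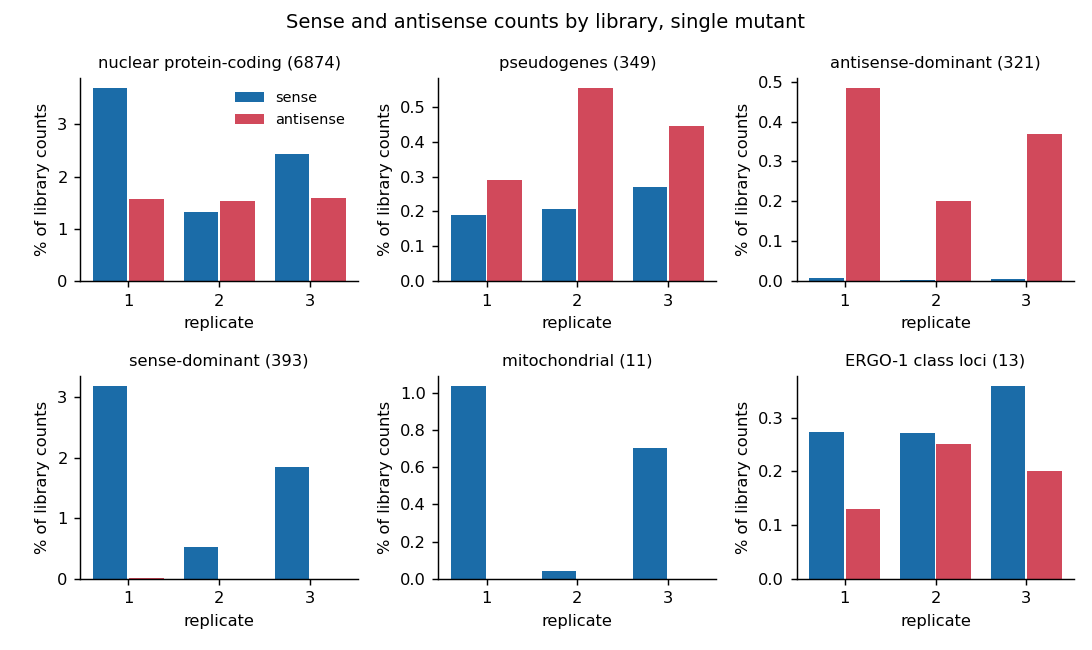
Sense (blue) and antisense (red) counts as percent of all counts of a library (y axis, one scale per panel) in ced-3 replicates 1 to 3 (x axis), summed over sets of genes with their number in parentheses; no errors are drawn because each bar is 1 library. Sense counts of protein-coding, sense-dominant and mitochondrial genes are lowest in replicate 2, while the antisense counts of protein-coding genes stay between 1.54% and 1.58%. Antisense counts of antisense-dominant genes are lowest in replicate 2 as well. The protein-coding and sense-dominant sets hold trxr-1, acdh-1 and C55B7.3, which may share the same reads.

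Core histones, whose messages are made in bulk when DNA is copied, were sense as a group. Of 75 core and linker histone genes measured, 66 (88%) were called sense and 2 (2.67%) antisense, with 28 sense-dominant and a median share of 5.68%. With each strand scaled to its own table the list still had 44 sense and 6 antisense calls. His-53 had 498, 40 and 286 sense against 1, 0 and 0 antisense counts. Reads of the many histone copies that share their sequence may be split among them, so a single histone gene is uncertain.

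The list was split into core and linker genes after the values were seen, and the difference between core and linker genes was not tested. Of 67 core genes, 64 were called sense, with a median share of 4.298%. Of 8 linker genes, 2 were called on each strand and 5 had more antisense than sense counts, with a median share of 61.2%. Without replicate 3, 1 linker gene was called antisense and 0 sense by edgeR, and DESeq2 with a shared size factor called 1 and 2 in all libraries. The linker gene hil-8 had 238, 127 and 162 antisense against 4, 15 and 14 sense counts (edgeR adjusted p = 7.68e-08). His-24, whose exons overlap M163.16 on the other strand, had 263, 175 and 288 against 141, 60 and 114, with more antisense in every library and a test that missed the threshold (edgeR adjusted p = 0.0528). For hil-4 the adjusted p was 0.0652, and for hil-6 it was 0.0267.

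Genes of the translation machinery and of muscle leaned sense. Of 71 ribosomal protein genes, 41 (57.7%) were called sense and 0 antisense by edgeR, with a median share of 18.8%. Under DESeq2 with a shared size factor 34 were called sense and 0 antisense. The calls rested on library scaling and on replicates, with 3 sense calls without replicate 3, 18 without replicate 1 and 3 sense against 12 antisense calls with each strand scaled to its own table. At rpl-7, 336, 8 and 155 sense counts stood against 9, 7 and 3 antisense counts, nearly equal in replicate 2. At the other end rps-13 had 30, 37 and 39 antisense against 50, 5 and 19 sense counts. Of 24 translation and housekeeping genes, 17 (70.8%) were called sense and 0 antisense by edgeR, with a median share of 17.2%, or 4 sense without replicate 3, 9 without replicate 1, and 2 sense against 7 antisense on own-table scaling. The elongation factor gene eef-2 had 913, 95 and 479 sense against 40, 37 and 60 antisense counts, and the tubulin gene tbb-1 had 738, 345 and 539 against 94, 104 and 97. The elongation factor gene eef-1A.2 had 1069, 46 and 541 sense against 9, 6 and 5 antisense counts, and inf-1, an initiation factor gene, had 81, 13 and 46 against 83, 98 and 96.

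Of 26 muscle genes, 19 (73.1%) were called sense and 1 (3.85%) antisense, with a median share of 11.9%. There were 11 sense calls without replicate 3, and 8 sense against 5 antisense calls on own-table scaling. The myosin heavy chain gene unc-54 had 431, 67 and 242 sense against 21, 7 and 18 antisense counts. The giant sarcomere gene unc-89 had 555, 69 and 256 against 57, 15 and 25. The paramyosin gene unc-15 was the one antisense call, with 480, 177 and 827 antisense against 149, 39 and 66 sense counts (edgeR adjusted p = 0.000148). At unc-60, which encodes an actin-depolymerizing factor, 85, 44 and 66 sense counts stood against 0, 0 and 0 antisense counts, which allows a share of up to 1.54%. In whole embryos, fewer cells of a type and less RNA per cell cannot be told apart.

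Collagen genes were called sense in 32 (50%) and antisense in 10 (15.6%) of 64 cases, with a median share of 21.9%. Own-table scaling turned the calls to 14 and 24, and without replicate 3 they were 19 and 2. At col-165, sense counts were 335, 72 and 158 and antisense counts 0, 0 and 0, which allows an antisense share of up to 0.531%. The collagen gene col-184 was antisense-dominant, with 45, 1 and 20 antisense against 4, 0 and 1 sense counts. Of 19 heat shock genes, 8 (42.1%) were called sense and 2 (10.5%) antisense (median share 22.015%), or 6 and 6 on own-table scaling. The small heat shock gene hsp-16.41 was at the sense end, with 143, 17 and 30 sense and 0, 0 and 0 antisense counts. Genes of the hsp-16 family are alike, so single ones are uncertain. At the antisense end hsp-25, which overlaps ipp-5 on the other strand, had 375, 36 and 129 antisense against 29, 5 and 6 sense counts.

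Yolk genes, which adult intestine expresses, showed both directions. Of 6 vitellogenin genes, 2 were called antisense and 2 sense, with a median share of 54.7%. All of these calls were lost without replicate 3, and own-table scaling gave 4 antisense and 1 sense. At vit-1, sense counts were 407, 4 and 384 and antisense counts 44, 9 and 12, so the sense excess was absent in replicate 2. At vit-2 they were 367, 1 and 265 against 26, 3 and 6, and exons of vit-2 overlap C42D8.9 on the other strand. Vit-4 had 12, 11 and 11 antisense against 3, 0 and 1 sense counts, and vit-3 had 17, 16 and 13 against 7, 1 and 5, both with exons that overlap genes on the other strand. Of the listed major sperm protein genes, 1 of 47 had enough counts, ssp-36, with 9, 5 and 19 antisense and 0, 0 and 0 sense counts.

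Sense-dominant genes outside the protein-coding class included linc-154, with 3108, 2509 and 2807 sense against 2, 3 and 6 antisense counts. A microRNA gene, cel-mir-8196a, lies on the same strand within linc-154. F31E9.11, C30E1.9 (overlapped on its strand by the short non-coding F52G3.6), the pseudogene F58D5.6 and the antisense RNA genes anr-26 and anr-28 completed the group of 6. The last pair had identical counts of 288, 280 and 333 sense, as overlapping genes that share their reads.

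Some genes had balanced strands in every library. An antisense share between 40% and 60% in each was found in 180 genes with no opposite-strand exon. The one with the most counts was Y51A2A.16, with 327, 724 and 622 antisense against 385, 672 and 613 sense counts. The splicing helicase gene snrp-200 had a share of 49.7% ± 5.95 (SD, n = 3), and mep-1, a zinc finger gene, had 122, 124 and 103 against 156, 89 and 102. F56C9.10 and Y53F4B.9 made up the 5.

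Other genes changed side between libraries. At C31H5.1, 2, 3 and 0 antisense counts stood against 79, 0 and 66 sense counts. At clp-10, a calpain gene, 45, 5 and 20 stood against 691, 1 and 520. In both, replicate 2 had almost no sense counts, and ola-1 and rpl-38 had the same pattern. K12H6.7 went the other way, with 66, 0 and 25 antisense against 14, 2 and 2 sense counts. These 5 genes had the widest range of shares among those with at least 100 counts.

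Some of the largest antisense counts lay opposite an exon of another gene. The non-coding F10C2.11 (chromosome V, 12038653 to 12039151) had 114639, 114714 and 107540 antisense counts, and mir-87 opposite it had 114607, 114685 and 107514 sense counts. F31C3.15 had 73021, 25381 and 42580 antisense counts across from rrn-1.1, a ribosomal RNA gene with 476852, 114910 and 247202 sense counts. The F-box genes fbxa-3 and fbxc-19 overlap on opposite strands, and fbxa-3 had 9383, 36538 and 21221 antisense counts where fbxc-19 had 8477, 34359 and 19586 sense counts. Other large loci had far fewer sense counts at the partner. Y37E11B.2 had 42323 antisense counts in sum against 626 sense counts of Y37E11B.16, and vps-32.1 had 13382 against 90 of C56C10.9. All of these were chosen after their values were seen.

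Where the sense counts of the partner are as high, the antisense counts of such a gene cannot be told apart from them. Members with an opposite-strand exon were antisense-dominant in 242 (7.90%) and sense-dominant in 90 (2.94%) of 3063 cases. Over all 10671 genes these were 5.36% and 4.60%, and over the 7323 without such an exon 4.38% and 5.37%. Their median share was 57.8% against 44.4% without one. Of 642 with at least 100 antisense counts and a partner in the tables, 34 lay within 10% of the partner's sense counts. Of 216 antisense-dominant genes with such a partner, 21 did. In both counts a gene was compared only with the opposite gene that shared the most exon bases. Matches with other opposite genes were not counted, so the true numbers may be higher.

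Dominance was found on every nuclear chromosome, with more of both classes on V and X. On chromosome V, 6.92% of the 1242 genes with no opposite-strand exon were antisense-dominant and 7.97% sense-dominant. On X they were 5.71% and 6.48% of 911. On III they were 2.54% and 2.85% of 1261. These shares are a description, since genes of a family lie together and are not independent. Dominant genes were shorter than the rest, with a median width of 1108 bases for antisense-dominant and 1137 for sense-dominant genes against 1724 for the other 6609.

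The dot-1.1; ced-3 double mutant libraries, which took no part in choosing these classes, showed the same strand at nearly all of them. Of the 572 antisense-dominant genes, 551 (96.3%) were called antisense in the double mutant alone, where 26.6% of all 12549 genes were. Of the 491 sense-dominant genes, 459 (93.5%) were called sense, against 25% of all. The stricter limit of 90% in all 3 double mutant libraries was met by fewer, 344 (60.1%) of the antisense-dominant and 269 (54.8%) of the sense-dominant genes. At T05E11.9 the double mutant had 25191, 23485 and 13525 antisense against 99, 69 and 55 sense counts. At tra-1 it had 5628, 7812 and 1922 against 8, 10 and 12.

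**Figure D5:**
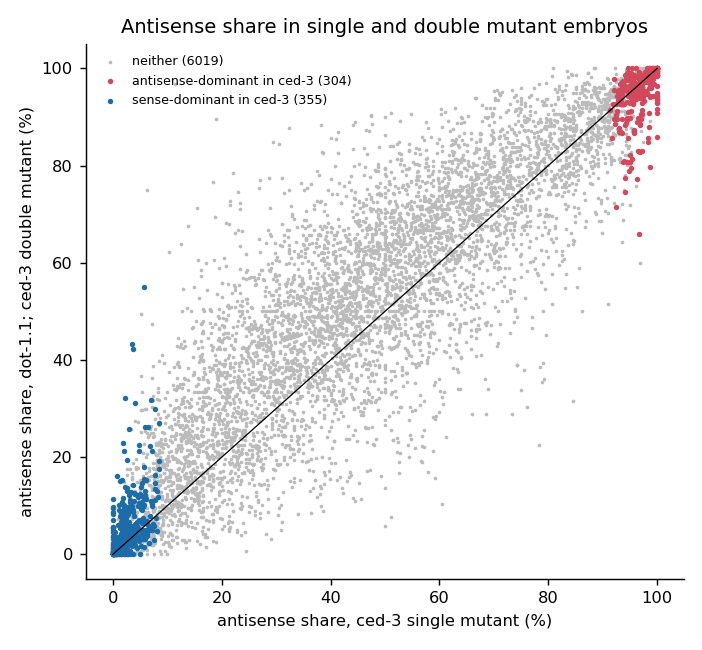
Antisense share in percent of counts summed over 3 libraries in the double mutant (y axis) against the ced-3 single mutant (x axis), for genes with no opposite-strand exon and at least 30 counts in the double mutant, with the line of equality. Red points are the 304 antisense-dominant and blue points the 355 sense-dominant genes of the single mutant, and most keep to their corner.

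On summed counts, 571 antisense-dominant and 489 sense-dominant genes stayed on their side of 50%, and 3 did not. The acid sphingomyelinase gene asm-2 had 4, 0 and 3 antisense against 71, 1 and 42 sense counts in ced-3 embryos and 10, 4 and 8 against 15, 3 and 0 in the double mutant. T14B4.3 had 1, 0 and 0 against 12, 8 and 9 in the single mutant and 2, 5 and 1 against 0, 2 and 4 in the double mutant. Y46H3A.4, whose exons overlap srt-42 on the other strand, had 21, 1 and 9 against 2, 0 and 1, then 5, 7 and 2 against 31, 15 and 3. The test of the difference between genotypes did not pass for any of the 3 (edgeR adjusted p = 0.443, 0.908 and 0.443).

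Whether the strand ratio itself differed with the dot-1.1 mutation was tested as an interaction of strand and genotype. By edgeR, 0 of the 10671 genes passed, which is 0% of all 12549 tested, and the smallest adjusted p was 0.112. At an unadjusted p under 0.05 the antisense side was higher in the double mutant for 390 genes and lower for 146, 5.02% in all. DESeq2 called 0 as well, with 302 and 105 at an unadjusted p under 0.05. Leaving out 1 library changed this in 3 cases, to 9 genes without double mutant replicate 3 and to 1 gene each without double mutant replicate 1 and without single mutant replicate 2. On simulated counts the strand test of 3 libraries recovered 64.2% of genes changed by 8-fold and 22.5% of those changed by 4-fold, and the interaction test was not simulated, so differences of strand ratio may have been missed.

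The limit on counts lay within a continuum, with 147 genes of width 300 or more at 30 counts and 171 at 29. This was not shown for width. Dominance was more frequent over all 12549 tested genes, whatever their width (8.05% antisense, 12.3% sense), than over the 10671 (5.36% and 4.60%). B0207.6 and B0303.11, with 30 counts each and exons that overlap other genes, were just inside, at antisense shares of 40.0% and 83.3% of summed counts. B0361.9 and B0524.3, with 29 counts each, were just outside, at 37.9% and 34.5%. At the limit on width, K03H6.10 (300 bases) had 16, 5 and 10 antisense counts and F31C3.16 (299 bases) had 48523, 8660 and 15391. Exons of other genes lie opposite 154 bases of the first and 290 bases of the second.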

How the data were processed

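Small RNA was sequenced from 6 libraries, 3 per genotype, as single reads of 50 bases. The authors deposited 2 tables of raw counts, whole-number reads per gene, one named antisense and one naming no strand. The second was read as sense, since it held 99.98% of the counts of 216 microRNA genes with no opposite-strand exon. The build is WBcel235, per the submitters' processing notes. The aligner, the counting program and the rule for multi-mapping reads were not stated by these sources. Columns were matched by genotype and replicate number. Sample titles carry other short names for replicates 2 and 3, so replicates 2 and 3 of a genotype could be exchanged with each other. This leaves each column's genotype, and its pairing between the tables, as given.

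Classes came from the RefSeq gene table (31418 genes matched), and positions and opposite-strand exons from Ensembl release 115 (31466 matched). For 74.3% of matched genes the deposited width equalled the Ensembl exon length, so some overlaps were not seen.

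Strands were compared in the 3 single mutant libraries with edgeR 4.0.16 (R 4.3.3), a robust quasi-likelihood F test with library as a block. Both columns of a library shared its total over both tables, genes needed 30 counts, and p-values were Benjamini-Hochberg adjusted over 12549 genes. The pairing of the columns comes from the library they share. Alternatives were DESeq2 1.42.0, other scalings, count and share limits, overlap rules, no library block and each library left out. The antisense share is antisense counts over both strands. Log2 ratios of genes with 0 counts on one strand depend on the prior count and are not given. Wilson intervals (95%) and the limit for a count of 0 (3 counts of the total) cover counting error only.

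The genes, the 21 gene lists and the rule for named genes were chosen with earlier results of these data known. Named genes with no opposite-strand exon were the 10 dominant genes with the most counts on each strand, the 6 of other classes with the most counts, 5 balanced and 5 variable genes. To these came the gene of each list with the highest and the lowest share, dot-1.1, ced-3 and genes at the limits. The others were chosen after their values were seen: K02E2.6, E01G4.7, E01G4.5, K06B9.6, F55C9.3, T16A1.10, F43E2.6, Y17D7C.3, F10C2.11, mir-87, rrn-1.1, F31C3.15, fbxa-3, fbxc-19, asm-2, T14B4.3, Y46H3A.4, hil-4, hil-6, his-24, ND4, C38D9.2, xol-1, unc-54, unc-89, srz-67, str-86, bath-20, eef-2, tbb-1, vit-1, vit-3, csr-1, sago-1, Y37D8A.3, Y37E11B.2, Y37E11B.16, vps-32.1 and C56C10.9.

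On simulated counts for 12549 genes with 200 changed, edgeR recovered 1.61%, 22.5% and 64.2% of genes changed by 2-, 4- and 8-fold, with 0 false calls, and DESeq2 3.23%, 26.8% and 50.7%, with 1. Each simulated gene had the same strand ratio in all libraries, whereas the real median share moved between them, at 40.6%, 61.9% and 48.9%. The rates and false calls do not cover such a shift. No sequence was used.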

Additional observations from a re-analysis of the deposited data

Results flagged for a closer look

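Y46H3A.4 had more antisense than sense counts in each single mutant library and more sense than antisense in each double mutant library. Of its summed counts, 91.2% were antisense in ced-3 embryos and 22.2% in dot-1.1; ced-3 embryos. Counts were low, with 31 antisense and 3 sense in all in ced-3 embryos, and 2 and 3 in double mutant replicate 3. Single libraries therefore say little. The interaction of strand and genotype did not pass (edgeR adjusted p = 0.443, unadjusted p = 0.000302). Its exons overlap srt-42 on the other strand, and the part of that gene's reads in the result was not tested.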

How the results depend on the processing

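Over 119 named genes and their alternatives, 1493 values kept their direction and side of the threshold, 68 lost the call, 25 gained one and 18 changed sign. Scaling each strand to its own table gave 6349 antisense and 669 sense calls. A minimum of 100 counts gave 1322 and 1307, and edgeR's own filter 1512 sense calls. Antisense calls were 1340 when only genes with no opposite-strand exon were fitted, and 1194 among genes with no gene span there. With 1 library left out, antisense calls ran from 1080 to 2241 and sense calls from 898 to 3058. Without the library block (no replicate block), calls were 1822 and 1977, the dominant genes numbered 572 and 491, and the interaction gave 0. DESeq2 gave 1946 and 1928 with a shared size factor.

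Dominant genes numbered 1201 antisense and 1032 sense at a limit of 80%, 95 and 90 at 99%, and 365 and 299 with at least 100 counts. The antisense class fell to 321 with no opposite-strand exon and to 296 with no opposite-strand span, and the sense class to 296 where the width equalled the Ensembl exon length. With 1 library left out they ran from 675 to 839 and from 555 to 841. The antisense share of the counts was 20.7% for genes of at least 1000 bases and 46.2% without the 10 genes with the most counts, and ran from 26.9% to 39.2% with 1 library left out. In the double mutant with 1 library left out, 489 to 536 antisense-dominant and 399 to 438 sense-dominant genes were called. The interaction gave 0 to 9 calls with 1 library left out.

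The values that changed sign were log2 ratios of antisense over sense. On own-table scaling Y51A2A.16 came to 1.91, snrp-200 to 1.92, ola-1 to 1.08, rpl-38 to 1.21, pos-1 to 0.22, dot-1.1 to 1.46, B0207.6 to 1.18, K02E2.6 to 1.51 and E01G4.7 to 1.42. Without replicate 1, Y51A2A.16 came to 0.064, snrp-200 to 0.17, F56C9.10 to -0.16, ola-1 to 0.35 and rpl-38 to 0.49. Without replicate 2, mep-1 came to -0.17 and T16A1.10 to -0.28. With DESeq2's own size factors snrp-200 came to 0.0079, and without the library block mep-1 came to -0.015. The cause was not tested. The other ends of these genes' ranges with 1 library left out kept the sign: without replicate 1, mep-1 at 0.25 and T16A1.10 at 0.25, without replicate 2, Y51A2A.16 at -0.11, snrp-200 at -0.16, ola-1 at -2.12 and rpl-38 at -1.69, and without replicate 3, F56C9.10 at 0.21. The alternatives on opposite-strand spans and on width equal to the Ensembl exon length were chosen after seeing the data. At this depth and with 3 libraries, 22.5% of simulated 4-fold differences were called.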
